A study of Mus musculus with 4 samples.

Results

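The common gamma chain cytokine receptors are the receptor proteins through which T cells sense interleukins 2, 4, 7, 9, 15 and 21. Their 8 genes, Il2ra, Il2rb, Il2rg, Il4ra, Il7r, Il9r, Il15ra and Il21r, were chosen by symbol and all 8 were found among the 34745 gene rows of the deposited table. RNA was sequenced from mouse T helper 17 (Th17) cultures, which are grown from naive CD4+ T cells and named for making interleukin 17. The C57BL/6 spleen cells had spent 3 days under Th17 polarizing conditions, whose cytokines are not named in the labels. Wild-type mice (WT) gave 2 libraries, named 13 and 15, and mice labelled Setd2-CD4 cre, whose libraries are titled ko, gave 2, named 22 and 24. Setd2 encodes the enzyme that trimethylates lysine 36 of histone H3. Cre driven by Cd4 sequences acts during thymic development and so also reaches cells that become CD8+ T cells. The altered Setd2 exons, the age of the mice, any Cre or altered allele in the WT mice and whether libraries came from separate animals are not stated in the labels, so a p-value here reflects how far these 4 libraries scatter, and that scatter may be technical.

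These receptors share the chain encoded by Il2rg. Each cytokine adds chains of its own: the beta chain from Il2rb serves IL-2 and IL-15, and the alpha chains from Il2ra and Il15ra raise the affinity for these cytokines. IL-4, IL-7, IL-9 and IL-21 each pair the shared chain with the product of Il4ra, Il7r, Il9r or Il21r. Signals run through the kinases JAK1 and JAK3 to STAT factors, chiefly STAT5 for IL-2, IL-7, IL-9 and IL-15, STAT6 for IL-4 and STAT3 for IL-21. In Th17 cells IL-2 and STAT5 restrain IL-17 production, IL-21 acting through STAT3 promotes the program, and IL-7 supports survival.

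Il7r and Il15ra rose in Setd2-CD4 cre cultures, by 1.81-fold and 1.88-fold, and Il2ra fell, with WT 1.55-fold above Setd2-CD4 cre. Il2rg, Il2rb, Il4ra, Il21r and Il9r did not pass the test. Among the 12927 genes tested by edgeR's quasi-likelihood test, 30.7% were called at an adjusted p of 0.05, 16.2% higher and 14.5% lower. The 3 calls among 8 members lie near that background. Scaled by library totals alone, the calls over all genes split into 1409 higher and 2879 lower in place of 2094 and 1880, and by upper-quartile factors into 1565 and 2617. The values that follow are CPM (counts scaled to library size) scaled by TMM factors, which correct for library composition, and each fold change is Setd2-CD4 cre over WT.

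The 3 genes that changed begin as follows, shown so that the start of each can be compared. RefSeq (GRCm38.p6) gave start windows for 7 of the 8 genes, Il2rb having no entry, and 2 windows for Il15ra. Each line holds the 250 bases before a start, read 5′ to 3′ on the gene's strand, with motif matches in capitals. They are chr15:9529877-9530126 (minus strand) for Il7r, chr2:11642542-11642791 (plus) for Il2ra, and chr2:11705043-11705292 and chr2:11705462-11705711 (plus) for the Il15ra starts.
Il7r: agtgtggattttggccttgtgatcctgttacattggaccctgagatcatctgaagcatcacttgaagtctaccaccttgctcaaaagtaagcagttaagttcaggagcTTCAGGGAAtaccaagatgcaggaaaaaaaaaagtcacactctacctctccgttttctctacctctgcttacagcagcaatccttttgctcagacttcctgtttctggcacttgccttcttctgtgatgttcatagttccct
Il2ra: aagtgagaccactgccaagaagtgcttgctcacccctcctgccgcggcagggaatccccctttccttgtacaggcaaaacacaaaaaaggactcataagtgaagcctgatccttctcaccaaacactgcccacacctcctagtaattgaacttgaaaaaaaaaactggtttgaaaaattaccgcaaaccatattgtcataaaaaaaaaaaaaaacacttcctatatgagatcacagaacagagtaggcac
Il15ra, upstream start: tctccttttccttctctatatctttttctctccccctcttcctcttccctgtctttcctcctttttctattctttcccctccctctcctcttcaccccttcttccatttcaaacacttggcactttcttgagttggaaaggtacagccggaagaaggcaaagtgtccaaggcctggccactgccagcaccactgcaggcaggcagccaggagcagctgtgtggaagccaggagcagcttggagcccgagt
Il15ra, downstream start: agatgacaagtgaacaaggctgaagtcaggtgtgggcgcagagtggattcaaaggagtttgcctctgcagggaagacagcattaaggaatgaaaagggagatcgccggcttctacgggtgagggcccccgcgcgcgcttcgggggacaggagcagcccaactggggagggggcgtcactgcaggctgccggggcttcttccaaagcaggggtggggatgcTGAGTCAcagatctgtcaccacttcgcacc
Both strands of each 300-base window, which runs from 250 bases before to 50 after the start, were searched for 3 motifs. The STAT motif TTCNNNGAA was present for Il7r alone among these 7 genes, 142 bases before its start, and lies in 8.30% of all 32851 windows. The AP-1 motif TGANTCA was present at the downstream Il15ra start, 30 bases before it, and lies in 7.81% of windows. The FOXO motif TGTTTAC was present for Il21r alone among them, 38 bases before its start, and lies in 3.65% of windows. The Il2ra window held none of the 3, which says only that these letters are not in it. A match is a description of letters and shows no binding. GENCODE release M21 extends Il7r upstream to position 9530176, beyond the Il7r window.

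The libraries held 11007343 to 12518415 counts. Setd2 itself gave 183 and 176 CPM in WT against 144 and 153 in Setd2-CD4 cre (log2 fold change -0.28 with SE 0.10, edgeR adjusted p = 0.0748), a sum over the whole gene that does not test whether exons were removed. All 6 T cell markers and all 7 Th17 markers had counts in all 4 libraries. Of the Th17 markers 5 rose and none fell, with sums of 616 and 699 CPM in WT against 1253 and 1466 in Setd2-CD4 cre, and of the T cell markers 1 rose and 3 fell (3288 and 3154 against 2973 and 3116 CPM). Their part in the receptor changes was not tested. Of 10 B cell markers all 10 rose, from summed levels of 209 to 248 CPM in WT to 512 to 707 CPM in Setd2-CD4 cre, and B cells express several of these receptors, among them Il4ra and Il21r. Of 6 tested CD8 T and NK cell markers 2 rose, with Ncr1 at 0 in 1 library of each genotype, of 2 tested gamma-delta T cell markers 1 rose, and of 7 tested dendritic cell and macrophage markers 2 rose and 1 fell, with Adgre1 at 0 in both Setd2-CD4 cre libraries. Of 6 naive T cell markers, a state in which Il7r is high, none rose and 3 fell (2547 and 2262 against 1957 and 1997 CPM in sum). Of 6 regulatory T cell markers, a cell type with high Il2ra, 2 rose and 2 fell (1084 and 1117 against 1285 and 1408 CPM in sum). A sum follows its most abundant genes, and the median log2 fold change of these 6 was -0.85, with 4 below 0. Foxp3, which defines regulatory T cells, was at 235 and 231 counts in WT and at 10 and 129 in Setd2-CD4 cre. With all 4 libraries it was not called (log2 fold change -1.46, edgeR adjusted p = 0.409). The Foxp3 value was -0.58 without replicate 22 and -4.17 without replicate 24 of Setd2-CD4 cre, below 0 in both fits. Its size thus depended on 1 library. The part of other cells in the receptor values was not tested, and fewer cells of a type and less RNA per cell cannot be told apart in bulk samples.

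**Figure D1:**
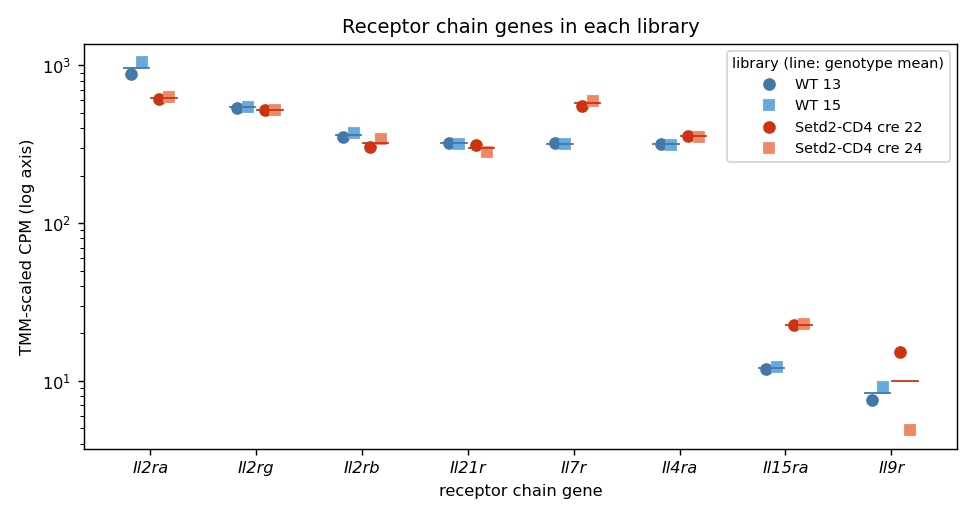
TMM-scaled CPM (log axis) of the 8 receptor chain genes in each library, with WT libraries in blue, Setd2-CD4 cre libraries in red and a line at each genotype's mean of 2. Il2ra sits lower and Il7r and Il15ra higher in both Setd2-CD4 cre libraries, while the Il9r values of Setd2-CD4 cre lie on either side of WT.

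The shared chain gene Il2rg (ENSMUSG00000031304, chromosome X, 101264378 to 101268255, GRCm38) gave 537 CPM in WT 13, 544 in WT 15, 522 in Setd2-CD4 cre 22 and 519 in Setd2-CD4 cre 24. The genotypes did not overlap but lay close together, at 540.4 ± 4.84 and 521 ± 1.76 CPM (SD, n = 2 each). The log2 fold change was -0.05 (SE 0.11, 95% interval -0.30 to 0.19, edgeR adjusted p = 0.728). Of the 8 genes it had the smallest change in size. Non-overlap is common here: 7 of the 8 members and 70.7% of tested genes showed it.

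Il2rb (ENSMUSG00000068227, chromosome 15, 78479256 to 78495271), the beta chain gene, gave 353 and 374 CPM in WT against 303 and 343 in Setd2-CD4 cre. Both Setd2-CD4 cre values were below both WT values, but replicate 24 came within the distance that separates the WT libraries. The log2 fold change of -0.17 (SE 0.11, 95% interval -0.43 to 0.09) did not pass (edgeR adjusted p = 0.28). Without Setd2-CD4 cre replicate 24 it was -0.26 and passed (adjusted p = 0.0231), a fit that leaves 1 library of that genotype, assumed to vary like WT.

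Il2ra (ENSMUSG00000026770, chromosome 2, 11642807 to 11693193) encodes the alpha chain of the IL-2 receptor, CD25, a gene that IL-2 signals and T cell activation induce. It gave 884 and 1043 CPM in WT against 609.6 and 631 in Setd2-CD4 cre. The WT libraries differed from each other more than the Setd2-CD4 cre libraries did, and both WT values were above both of theirs. Il2ra fell, with means of 964 ± 113 CPM in WT and 620.5 ± 15.3 in Setd2-CD4 cre (SD, n = 2 each) and a log2 fold change of -0.64 (SE 0.13, 95% interval from -0.93 to -0.34, edgeR adjusted p = 0.00982). Without WT 15, the higher of the WT libraries, the log2 fold change was -0.51 and the call was lost (adjusted p = 0.136).

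Il15ra (ENSMUSG00000023206, chromosome 2, 11705290 to 11734317) encodes the alpha chain that binds IL-15 and presents it to cells carrying the beta and gamma chains. It gave 11.8 and 12.3 CPM in WT against 22.6 and 22.9 in Setd2-CD4 cre, from 155 and 162 counts against 232 and 250. Replicates lay close together and the genotypes far apart. Il15ra rose by a log2 fold change of 0.91 (SE 0.16, 95% interval from 0.54 to 1.29, edgeR adjusted p = 0.00608). Without WT 13 the value was 0.88 and the call was lost by a narrow margin (adjusted p = 0.0512).

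Il7r (ENSMUSG00000003882, chromosome 15, 9505788 to 9530176) encodes the IL-7 receptor alpha chain, CD127, which also serves the receptor for TSLP. It gave 319.7 and 316 CPM in WT against 553 and 595 in Setd2-CD4 cre. Both Setd2-CD4 cre values were well above both WT values, and the spread within either genotype was small beside that gap. Il7r rose, with means of 318 ± 2.90 CPM in WT and 574 ± 29.9 in Setd2-CD4 cre (SD, n = 2 each) and a log2 fold change of 0.85 (SE 0.11, 95% interval from 0.60 to 1.11, edgeR adjusted p = 0.00191). It was the only member whose call held in all 13 alternatives tried, with log2 fold changes of 0.70 to 0.91.

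Il4ra (ENSMUSG00000030748, chromosome 7, 125552120 to 125579474), the alpha chain gene of the IL-4 receptor, gave 316 and 314 CPM in WT against 355 and 353 in Setd2-CD4 cre. Replicates almost coincided and the genotypes did not overlap, yet the log2 fold change of 0.17 (SE 0.10, 95% interval -0.07 to 0.40) did not pass (edgeR adjusted p = 0.241). It was 0.02 when counts were scaled by library totals alone.

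Il21r (ENSMUSG00000030745, chromosome 7, 125603429 to 125633570) encodes the receptor for IL-21. It gave 319.5 and 319 CPM in WT against 313 and 283 in Setd2-CD4 cre, with replicate 22 close to WT. Its log2 fold change was -0.10 (SE 0.11, 95% interval -0.35 to 0.15, edgeR adjusted p = 0.495).

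Il9r (ENSMUSG00000020279, chromosome 11, 32187541 to 32200279), the IL-9 receptor gene, was the least abundant member by count. It gave 7.62 and 9.20 CPM in WT against 15.2 and 4.85 in Setd2-CD4 cre, from 100, 121, 156 and 53 counts. The WT values lay between the Setd2-CD4 cre values, and the ratio of replicate 22 to 24 was 3.13, with a 95% counting interval of 2.28 to 4.36 (exact binomial, counting error only). The log2 fold change was 0.25 (SE 0.54, 95% interval -1.13 to 1.63, edgeR adjusted p = 0.756). It was -0.78 without replicate 22 (adjusted p = 0.0395) and 0.85 without replicate 24 (adjusted p = 0.00362), so its direction depended on 1 library. Markers of other cells differed between the same libraries, in both directions. The summed level of 10 B cell markers was 707 CPM in replicate 22 and 512 CPM in 24, and that of 8 CD8 T and NK cell markers 226 and 122 CPM. Sums were lower in 22 than in 24 for gamma-delta T cell markers (28.0 and 31.0 CPM) and dendritic cell and macrophage markers (134 and 142 CPM). The same held for regulatory T cell markers (1285 and 1408 CPM). Within that list Foxp3 differed far more between these libraries, by the counts given above. The part of all these markers in the Il9r values was not tested.

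**Figure D2:**
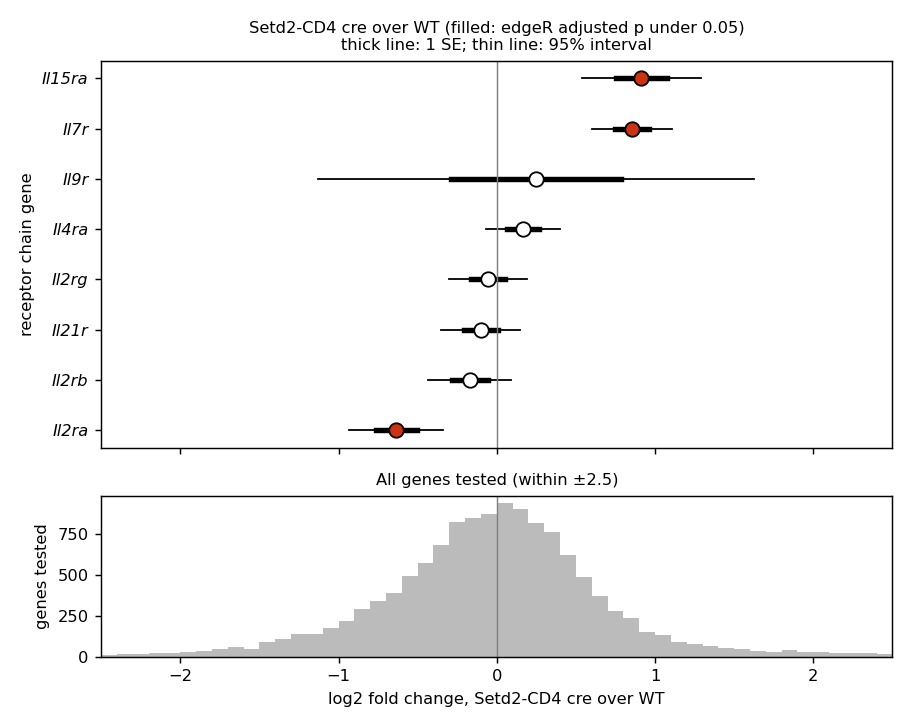
Upper panel, log2 fold change of each receptor chain gene (point) with 1 SE (thick line) and the 95% interval (thin line), filled where the edgeR adjusted p is under 0.05; lower panel, number of tested genes in each 0.1-wide bin of log2 fold change. The 3 filled points, at -0.64, 0.85 and 0.91, fall on the shoulders of the distribution of all genes, and the Il9r interval spans 0 widely.

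The sizes of the 3 changes were moderate among all genes. The absolute log2 fold change of Il15ra exceeded that of 83.2% of tested genes, that of Il7r 80.9% and that of Il2ra 70.4%. The other 5 exceeded 7.57% (Il2rg) to 33.8% (Il9r). The median log2 fold change over the 8 members was 0.06, with 4 above and 4 below 0, beside -0.01 over all tested genes. Scaling by library totals moved the median of all genes to -0.16 and upper-quartile factors to -0.12. The members kept their order, which rescaling could hardly change because it shifts all genes by nearly the same amount. Under both scalings Il7r, Il15ra and Il2ra kept their directions and their calls.

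Levels can be compared between genes only per length, for which the deposited FPKM values (fragments scaled to gene length and library size) were used. In WT, Il2ra led with 156 and 186 FPKM, followed by Il2rg with 155 and 159. Il2rb (102 and 109 FPKM) and Il7r (105 and 104 FPKM) exchanged places between the WT libraries, and Il2ra and Il2rg overlapped. With the deposited lengths, then, neither pair differed beyond its spread. Il21r followed at 65.9 and 66.5 FPKM and Il4ra at 36.2 and 36.3 FPKM. Il15ra (1.01 and 1.07 FPKM) and Il9r (0.879 and 1.07 FPKM) were far lower and exchanged places. Ranked among genes with a count in any library, the WT means of Il2ra, Il2rg, Il2rb, Il7r, Il21r and Il4ra were above 99.2, 99.1, 98.5, 98.4, 97.2 and 93.6% of genes, and those of Il15ra and Il9r above 40.3 and 39.7%.

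In Setd2-CD4 cre the order at the top was different. Il7r led with 161 and 179 FPKM, Il2rg followed with 134 and 138, and Il2ra came next with 96.0 and 103. Il2rb had 77.6 and 90.8 FPKM, Il21r 57.4 and 53.6, Il4ra 36.2 and 37.2, Il15ra 1.73 and 1.81, and Il9r 1.56 and 0.515. No neighbours in this order overlapped across these libraries. Of the summed FPKM of the 8 genes, Il2ra took 25.2 and 28.1% in WT against 17.0 and 17.0% in Setd2-CD4 cre, while Il7r took 16.8 and 15.7% in WT against 28.4 and 29.7% in Setd2-CD4 cre. The share of Il2rg moved less, from 24.9 and 23.9% to 23.7 and 22.9%.

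**Figure D3:**
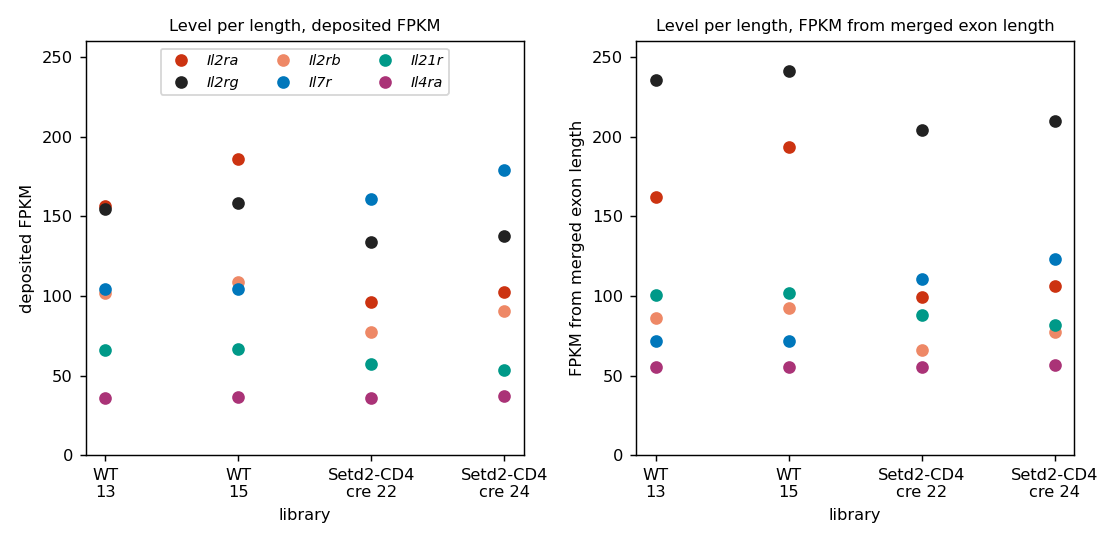
Level per length of the 6 abundant receptor chain genes in each library (points), as deposited FPKM on the left and recomputed with merged exon lengths of GENCODE M21 on the right. On the left Il7r lies near Il2rb in WT and above every other member in Setd2-CD4 cre; on the right Il2rg is highest in all 4 libraries and Il7r passes Il2ra in Setd2-CD4 cre.

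A ratio of members within a library does not depend on how libraries are scaled. The FPKM ratio of Il7r to Il2ra was 0.668 and 0.559 in WT against 1.68 and 1.74 in Setd2-CD4 cre, with means of 0.614 ± 0.0772 and 1.71 ± 0.0469 (SD, n = 2 each). The genotypes did not overlap, and the mean ratio was 2.78 times as high in Setd2-CD4 cre. This restates the opposite changes of Il7r and Il2ra in the same counts and is no separate evidence for them. The ratio of Il7r to its partner Il2rg was 0.674 and 0.657 in WT against 1.20 and 1.30 in Setd2-CD4 cre. The ratio of Il2ra to its partner Il2rb was 1.54 and 1.72 in WT against 1.24 and 1.13 in Setd2-CD4 cre, also without overlap. The ratio of Il2rb to Il2rg overlapped between genotypes, at 0.656 and 0.685 against 0.579 and 0.658. Of 15 such ratios among the 6 abundant members, the smallest exact two-sided permutation p was 0.333, which is the smallest that 2 against 2 allows.

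The deposited lengths bear on the order. The FPKM values imply lengths of 12214 bases for Il15ra and 3633 for Il2rg, where merged exons in GENCODE M21 give 4446 and 2387, and of 3208 for Il7r, where they give 4663. With merged exon lengths Il2rg led in all 4 libraries (204 to 241), Il7r had rank 5 in WT (71.9 and 71.7) and rank 2 in Setd2-CD4 cre (111 and 123), and Il2ra had rank 2 in WT (162 and 193) and rank 3 in Setd2-CD4 cre (99.7 and 107). In both WT libraries Il2rg was then above Il2ra, and Il2rb (86.4 and 92.3) above Il7r. Il15ra (2.78 and 2.94) was likewise above Il9r (1.61 and 1.97). The overlap and exchanges of places in WT thus held only with the deposited lengths. The percentages of genes that the WT means exceeded rest on those lengths too. Il7r passed Il2ra in Setd2-CD4 cre on both scales, with ratios of 0.443, 0.371, 1.11 and 1.15 on the merged exon scale. This choice of length was added after the deposited lengths had been seen.

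The members also share positions that their selection did not use. Il2ra and Il15ra lie 12.1 kb apart on the same strand of chromosome 2, and Il4ra and Il21r lie 23.95 kb apart on the same strand of chromosome 7. The alpha chain genes of the first pair moved in opposite directions, and neither gene of the second pair passed the test. One further transcript lies inside Il2ra. Gm37881 (ENSMUSG00000104101, 11683126 to 11683546, plus strand), a single annotated transcript model of 421 exon bases, shares 0 bases with Il2ra exons, so that it falls in an intron on the strand of Il2ra. It was counted 263 and 289 times in WT against 465 and 570 in Setd2-CD4 cre, or 20.03 and 21.98 CPM against 45.2 and 52.2 CPM. Gm37881 rose by a log2 fold change of 1.21 (with SE 0.15 and edgeR adjusted p = 0.00164), while the count assigned to its host Il2ra fell. Reads from unspliced Il2ra RNA and from a separate transcript cannot be told apart in these counts. The other annotated overlaps of members had almost no counts assigned. Gm44876 in Il4ra had 0, and Gm20489 at Il2rg at most 1 per library. Many of their exon bases (571 of 670 and 728 of 1350) are shared with these members, so the counts do not show that they are silent.

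**Figure D4:**
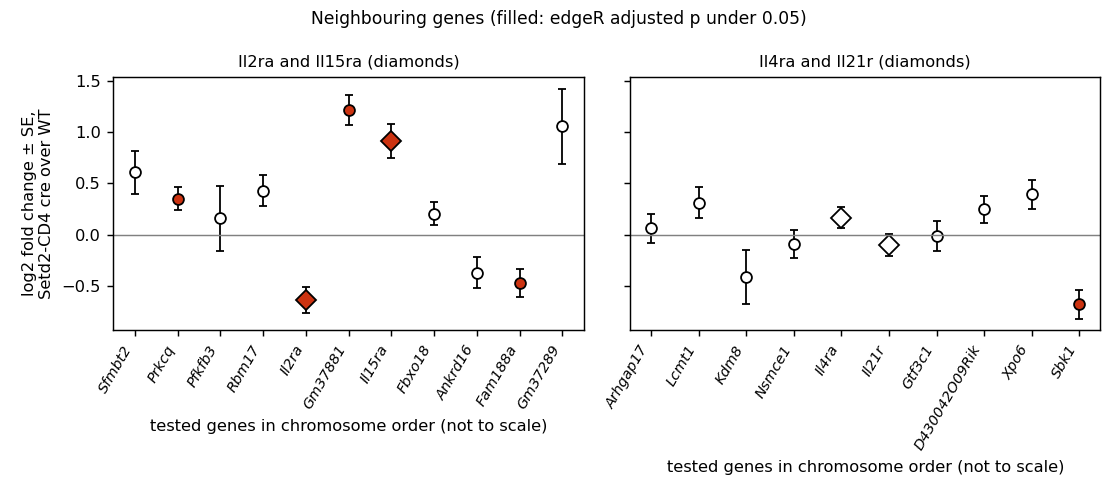
Log2 fold change ± SE of the tested genes around Il2ra and Il15ra (left) and around Il4ra and Il21r (right), in chromosome order and not to scale, with receptor genes as diamonds and filled symbols where the edgeR adjusted p is under 0.05. On the left Il2ra (-0.64) lies below 0 between neighbours that are mostly above it, among them Gm37881 (1.21) and Il15ra (0.91); on the right Sbk1 (-0.68) alone is filled.

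Beyond the pairs, the 4 tested genes on each side of every member held 49 different genes, of which 6 were higher and 7 lower, with a median log2 fold change of 0.13. These shares are near those over all genes. Directly beside Il2ra, Rbm17 had 0.43 on the log2 scale (edgeR adjusted p = 0.0594), and beside Il15ra, Fbxo18 had 0.21 (adjusted p = 0.182). Spef2 (0.13, adjusted p = 0.558) and Capsl (-0.42, adjusted p = 0.353) flank Il7r, and neither was called. Beside Il2rb, C1qtnf6 fell (-1.60, adjusted p = 0.0264) and Kctd17 did not pass (-1.09, adjusted p = 0.156). Beside Il2rg, Gm614 fell (-1.35, adjusted p = 0.00935 by edgeR) and Med12, a Mediator kinase-module gene, rose (0.61, adjusted p = 0.00936). Beside Il9r, Nsg2 (-0.15, adjusted p = 0.391) and Snrnp25 (0.21, adjusted p = 0.533) did not pass, nor did Nsmce1 beside Il4ra (-0.09, adjusted p = 0.633) or Gtf3c1 beside Il21r (-0.01, adjusted p = 0.952). The one called gene around Il4ra and Il21r was Sbk1, the farthest plotted beyond Il21r, which fell (-0.68, adjusted p = 0.0105) and was named after its value was seen. Of these calls, Med12 and Sbk1 were lost without WT 13 (0.0550 and 0.0651) and without WT 15 (0.112 and 0.104), Gm614 without WT 13 (0.0686), and C1qtnf6 without WT 15 (0.220) and under DESeq2 (0.0637). Rbm17 (0.63, adjusted p = 8.88e-06), Kctd17 (-1.86, adjusted p = 0.0193) and Gtf3c1 (-0.23, adjusted p = 0.0474) passed in edgeR without Setd2-CD4 cre 24, Rbm17 also with no filter on low counts (0.0295) and Kctd17 also under DESeq2 (0.0184).

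By Euclidean distance between profiles of log2 CPM over the 4 libraries, centred on the WT mean, the genes nearest to Il7r among 7312 candidates were Supt20 (0.0351), Exosc8 (0.0557) and Arap2 (0.0674). Those nearest to Il2ra were Mtch1 (0.035), Inip (0.0494) and Kat2a (0.0516). The distances describe these 4 libraries, and nothing is drawn from the names.

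As given above, 16.2% of all tested genes were called higher and 14.5% lower. Of the 6 cytokine genes for these receptors, 3 were tested, 2 of which fell and none of which rose. Il21, the ligand gene of Il21r and the most abundant of them, gave 114 and 131 CPM in WT against 58.1 and 78.8 in Setd2-CD4 cre (log2 fold change -0.84 with SE 0.16, edgeR adjusted p = 0.00887). Il2 gave 6.02 and 7.91 CPM in WT against 1.07 and 2.01 in Setd2-CD4 cre, from 79 and 104 counts against 11 and 22 (-2.16, SE 0.38, adjusted p = 0.00608). Il2 and the gene for its receptor's alpha chain, Il2ra, both fell, and Il21 fell while Il21r was not called. Il4 was counted 33 and 31 times in WT against 5 and 16 in Setd2-CD4 cre (-1.30, SE 0.54, adjusted p = 0.0995). Without Setd2-CD4 cre 24 the Il4 value was -2.30 and passed (0.0101), without Setd2-CD4 cre 22 it was -0.72 (0.309), and on log2(FPKM + 1) it was -0.79 and passed (0.0374). Il9 (9, 5, 4 and 0 counts), Il15 (3, 2, 7 and 9) and Il7 (0, 0, 0 and 1), in the order WT 13, WT 15, Setd2-CD4 cre 22 and 24, were too low to be tested. A count of 0 allows up to 3 counts in a library, which is 0.240 to 0.273 CPM of the library totals (counting error only).

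Of 17 tested JAK, STAT and adaptor genes, 5 rose and 2 fell, with a median log2 fold change of 0.17. The shares over all tested genes were 16.2% higher and 14.5% lower. Stat3, the factor activated by IL-21 and IL-6, rose (mean 406 ± 10.1 CPM in WT, 739.9 ± 30.2 in Setd2-CD4 cre, log2 fold change 0.86 with SE 0.11, edgeR adjusted p = 0.002). Stat5a (0.54, SE 0.11, adjusted p = 0.00962) and Stat5b (0.46, SE 0.11, adjusted p = 0.0164) rose as well, and so did the adaptor genes Sos1 (0.67, adjusted p = 0.00407) and Gab2 (0.80, adjusted p = 0.0159). Akt1 (-0.73, adjusted p = 0.0043) and Pik3r1 (-0.52, adjusted p = 0.0135), of the PI3K branch, fell. The kinases that bind these receptors did not pass with all libraries: Jak1 stood at 617 and 536 against 748 and 727 CPM (0.35, adjusted p = 0.0588), and Jak3, the partner of the shared chain, at 916 and 881 against 618 and 810.4 CPM (-0.33, adjusted p = 0.127). Jak1 passed in 4 of 13 alternatives, with 0.36 under DESeq2 (adjusted p = 0.0388), 0.35 with no filter (0.0468), 0.34 without replicate 22 of Setd2-CD4 cre (0.00794) and 0.38 without its replicate 24 (0.00209). Jak3 depended on the library left out, with -0.54 without replicate 24 (edgeR adjusted p = 1.88e-05) and -0.14 without replicate 22 (0.213). Stat5a lost its call without WT 13 (adjusted p = 0.0731) and without WT 15 (0.148), Stat5b likewise (0.133 and 0.215), Gab2 without WT 13 (0.0960), Sos1 without WT 15 (0.0632) and Pik3r1 without either (0.0531 and 0.158). Stat5b also lost it with library totals (0.0617) and on log2(FPKM + 0.1) (0.0519), and Gab2 on log2(FPKM + 1) (0.0523) and log2(FPKM + 0.1) (0.0519). The number that rose was 2 without either WT library and 8 without Setd2-CD4 cre 22, and the number that fell was 1 without either WT library and 5 without Setd2-CD4 cre 24. Stat5b, Gab2, Pik3r1, Jak1 and Jak3 were named after their values were seen.

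Of 17 tested genes that STAT5 induces or that feed back on these receptors, 1 rose and 5 fell, with a median of -0.24. All tested genes gave 16.2% higher and 14.5% lower. Socs1, an inhibitor of JAK kinases, fell (mean 50.9 ± 3.88 CPM in WT, 23.9 ± 2.36 in Setd2-CD4 cre, log2 fold change -1.09 with SE 0.15, edgeR adjusted p = 0.00218), and Socs2 from 48.0 ± 4.26 to 24.2 ± 6.04 CPM (-0.99, SE 0.19, adjusted p = 0.00823). The cyclin gene Ccnd2 (-0.61, adjusted p = 0.00751), the survival gene Bcl2 (-0.58, adjusted p = 0.00795) and Socs3 (-0.43, adjusted p = 0.0301) also fell, while Ctla4, an inhibitory receptor gene, rose (0.56, adjusted p = 0.013). Cish, a STAT5 target, gave 237 and 473 CPM in WT against 430.1 and 204 in Setd2-CD4 cre, so that the genotypes overlapped (-0.16, SE 0.60, adjusted p = 0.865). Socs3, Ctla4 and Cish were named after their values were seen. The number that fell was 3 without WT 13 and 2 without WT 15, where Bcl2 (0.0597 and 0.0939), Socs3 (0.261 and 0.104) and, without WT 15, Ccnd2 (0.103) did not pass, nor did Ctla4 in either fit (0.157 and 0.112). Ctla4 also missed on log2(FPKM + 1) (0.0579) and log2(FPKM + 0.1) (0.0587). With library totals or upper-quartile factors 9 were lower. Under these scalings the lower calls among all 12927 genes rose as well, to 2879 and 2617.

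**Figure D5:**
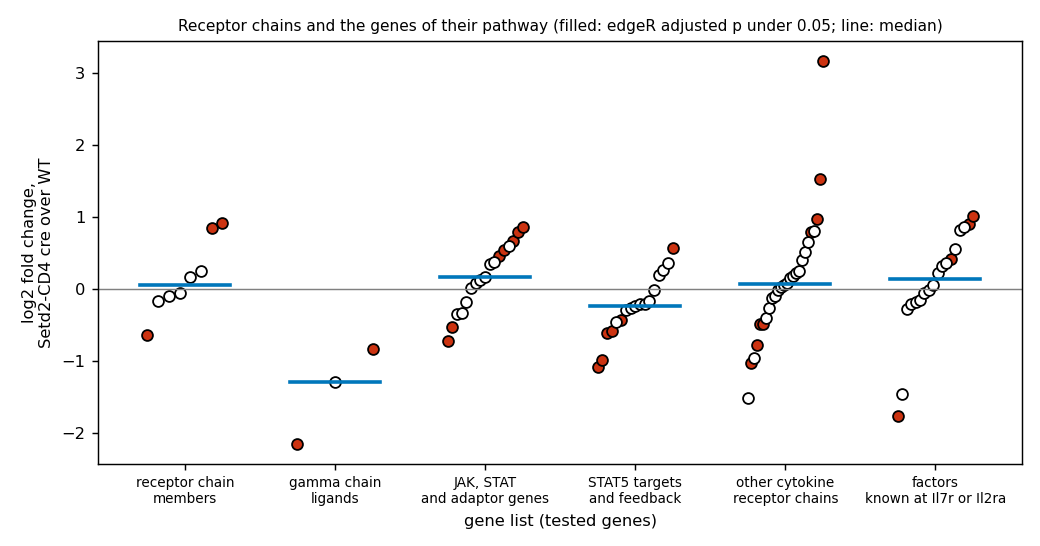
Log2 fold change of each tested gene (point) in the 8 receptor chains and in 5 lists of their pathway, filled where the edgeR adjusted p is under 0.05, with a line at each list's median. The STAT5 target list has its median at -0.24 and the JAK, STAT and adaptor list at 0.17, and the receptor chains spread from -0.64 to 0.91.

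Chains outside the family that pair with these receptors were also measured. Crlf2, which joins the product of Il7r in the TSLP receptor, gave 41.8 and 41.2 CPM in WT against 31.8 and 30.9 in Setd2-CD4 cre. It fell by 0.41 on the log2 scale (SE 0.13, edgeR adjusted p = 0.0481), opposite to Il7r, and lost its call without WT 13 (0.261), without WT 15 (0.263), under DESeq2 (0.152) and under DESeq2 size factors in edgeR (0.0513). Il13ra1, the partner of the Il4ra product for IL-13, was counted 18 and 19 times in WT against 2 and 9 in Setd2-CD4 cre (-1.43, SE 0.65, adjusted p = 0.13). The Il13ra1 value was -2.79 without replicate 24, where it passed (0.0335), and -0.76 without replicate 22.

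Among 26 tested receptor chains of other cytokines, 4 rose and 4 fell, with a median log2 fold change of 0.07. In the gamma chain family 2 of 8 rose and 1 fell, with a median of 0.06. Over all tested genes 16.2% were higher and 14.5% lower, so both families lie near that background. With library totals the median of the 26 chains was -0.08, where that of all genes was -0.16. The range of the 26 chains, from -1.51 to 3.18, was wider than that of the gamma chain family. Il23r, a receptor gene of the Th17 program, rose by 3.18 (edgeR adjusted p = 0.000455) and the decoy receptor gene Il1r2 by 1.54 (adjusted p = 0.000695). Il6ra (-0.78, adjusted p = 0.00247) and Il27ra (-1.03, adjusted p = 0.0025) fell. The number that rose was 8 without Setd2-CD4 cre 22, and the number that fell was 8 without Setd2-CD4 cre 24 and 2 without either WT library. No test of a difference between the families was made.

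Of 18 factors known to act at Il7r or Il2ra, 3 rose and 1 fell, beside 16.2% higher and 14.5% lower over all tested genes. Their median was 0.15, and -0.01 with library totals, where that of all genes was -0.16. The number that rose was 5 without replicate 22 and 6 without replicate 24 of Setd2-CD4 cre, and the number that fell was 2 and 5. Runx3 rose (mean 172 ± 10.3 CPM in WT, 349 ± 16.0 in Setd2-CD4 cre, log2 fold change 1.02 with SE 0.11, edgeR adjusted p = 0.00123). Rel, the NF-kappaB subunit gene known to drive Il2ra, rose (0.91, SE 0.11, adjusted p = 0.00157) while Il2ra fell. Klf2, a quiescence factor gene, fell (-1.76, SE 0.17, adjusted p = 0.00106). Gabpa, an ETS factor gene required for Il7r, rose (0.41, SE 0.12, adjusted p = 0.0308), a call that held in 6 of 13 alternatives. It was lost without WT 13 (0.267), without WT 15 (0.164), with upper-quartile factors (0.0818), with library totals (0.116), under DESeq2 (0.0555), on log2(FPKM + 1) (0.134) and on log2(FPKM + 0.1) (0.131). Foxo1, a direct activator of Il7r, gave 252 and 251 CPM in WT against 258 and 240.05 in Setd2-CD4 cre (-0.01, SE 0.10, adjusted p = 0.924; named after its values were seen).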

How the data were processed

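Total RNA from 4 Th17 cultures (2 WT, 2 Setd2-CD4 cre, day 3) was sequenced on an Illumina HiSeq, per the labels' protocols. The submitters' processing notes name Bowtie2, RSEM, GRCm38.p6 and mm10, with no role or version. The deposited values are whole-number counts per gene and FPKM, both made by the authors. From the counts, gene lengths and library totals, 64572 deposited FPKM values were recomputed to within 0.132%. Of 34745 genes, 34267 were found in GENCODE M21 and 0 columns were left unused. Strand handling in the counting is not given in the sources used here. The title was followed for WT 15, although its cell type label reads 14.

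Counts were fitted with edgeR 4.0.16 in R 4.3.3 (TMM factors, filterByExpr, robust quasi-likelihood F-test), checked on simulated data, with Benjamini-Hochberg adjustment over all 12927 genes tested and a threshold of 0.05. Libraries held 12518415 and 12414098 (WT) or 11007343 and 11322621 (Setd2-CD4 cre) counts, genotypes came from the titles, and the labels name no batch. Alternatives used other scalings, other filters on low counts, DESeq2 1.42.0, limma 3.58.1 on counts (voom) or on log2(FPKM + 1) and log2(FPKM + 0.1), which understates changes of low genes, and each library left out. Genes named were the 8 members, Setd2, the 2 to 4 genes of smallest p per list, all ligands and partner chains, adjacent tested neighbours, and the 3 genes nearest to Il7r and to Il2ra among those of at least 20 CPM without a predicted-gene name. Gm37881, which overlaps Il2ra, and a few others marked as such were named beyond this rule. The members and lists were chosen with earlier results of these data known. No set test was made. Markers Trgc1 and Trgc2 were not found in the table.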

Additional observations from a re-analysis of the deposited data

How the results depend on the processing

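Il7r was called in all 13 alternatives, with log2 fold changes of 0.70 to 0.91. Il2ra was called in 12, losing its call without WT 15. Its values were -0.79 to -0.51 over the 13 and -0.75 to -0.51 without single libraries. Il15ra was called in 12, losing its call without WT 13. Its values were 0.44 to 0.94 over the 13, lowest on log2(FPKM + 1), and 0.88 to 0.94 without single libraries. Il2rb ranged from -0.26 to -0.0763 without single libraries and was called only without Setd2-CD4 cre 24. Il2rg, Il4ra and Il21r were called in none of the 13. Il9r changed sign: -0.00307 on log2(FPKM + 1), -0.0847 on log2(FPKM + 0.1) and -0.78 to 0.85 without single libraries. The cause was not tested. The number of members called higher ranged from 1 to 3 and lower from 0 to 2 without single libraries.

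Over all genes, calls fell to 922 higher and 737 lower without WT 13 and to 718 and 564 without WT 15, and rose to 3068 and 2903 without Setd2-CD4 cre 24. In such a fit the lone library of a genotype is assumed to vary like the other genotype. On log2(FPKM + 1), calls split into 1247 higher and 2692 lower. DESeq2 gave 1758 and 1313.

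Without single libraries, called numbers ranged from 2 to 8 higher and 1 to 5 lower in the JAK, STAT and adaptor list, 0 to 3 and 2 to 8 among STAT5 targets, 3 to 8 and 2 to 8 among other receptor chains, and 2 to 6 and 1 to 5 among factors at Il7r or Il2ra. The lower partner chains numbered 0 to 2 and the lower ligands 2 to 3, with Il4 passing without Setd2-CD4 cre 24. On log2(FPKM + 0.1), 3 JAK, STAT and adaptor genes were higher. STAT5 targets higher numbered 0 on log2(FPKM + 1) and 0 on log2(FPKM + 0.1), and those lower 8 on both, 9 with upper-quartile factors and 9 with library totals. Partner chains lower numbered 0 with DESeq2 size factors in edgeR and 0 with DESeq2.

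With merged exon lengths, an alternative added after seeing the data, mean levels in WT and Setd2-CD4 cre were 239 and 207 for Il2rg, 101 and 84.9 for Il21r, 89.4 and 71.6 for Il2rb, 71.8 and 117 for Il7r, 55.3 and 55.9 for Il4ra, 2.86 and 4.85 for Il15ra, and 1.79 and 1.91 for Il9r. No paired analysis was possible because the genotypes share no replicate number. With 2 libraries a genotype, differences within the 95% intervals of Il2rb, Il2rg, Il4ra, Il21r and Il9r are not excluded by these data.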
